A study of Mus musculus with 12 samples.

Results

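The metallothioneins and the enzymes that remove reactive oxygen species were followed in mouse small intestine over a fast, in mice killed at its start (0 h, fed) or after 12, 24 or 72 h without food. The list held 10 genes, namely Mt1, Mt2, Hmox1, Gpx1, Gpx2, Sod1, Sod2, Cat, Prdx1 and Gsr, and a probe belonged to it when the scanner output of the 12 h arrays gave it one of these names. By this rule 9 of the 20281 tested probes were members, for 8 of the 10 genes, with 2 probes for Sod2 and none for Mt2 or Prdx1.

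Metallothioneins are small, cysteine-rich proteins that bind zinc and copper. Superoxide dismutases convert superoxide to hydrogen peroxide, which catalase, glutathione peroxidases and peroxiredoxins then reduce, and glutathione reductase restores the glutathione that is used. Heme oxygenase breaks down heme and releases its iron. In the gut these proteins act in an epithelium that is exposed to luminal metals and oxidants and absorbs iron, zinc and copper.

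All mice were male FVB animals of 6 weeks of age. They were kept in metabolic cages, and an infrared lamp warmed them from 24 h onwards, so that the lamp goes together with the length of the fast. Each of 12 two-colour arrays carried Cy3-labelled RNA of the full-thickness intestine, pooled from 2 mice, against a Cy5-labelled reference of fed intestine, and each time point had 3 pools. The reference is described as a pool of 6 fed mice, although for fed pool 3 the source label names only the mice of that pool. By title and source label each pool held different mice, but the labelling text names the same pair of mice for most pools. If pools shared mice, the spread between them would be partly technical. The labels name no treatment other than fasting, and dyes were not swapped. Values are log2(Cy3/Cy5), so that a value above 0 means more signal in the pool than in the fed reference. A difference was called at an adjusted p under 0.05 by limma, with adjustment over all probes.

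The arrays differed in ways that touch the results. The scanner output of the 0 h and 72 h arrays had 1 layout and signal range, with a median Cy5 intensity of 124 to 142 per array, and that of the 12 h and 24 h arrays had another, with 393 to 627. Hence fasting for 12 h or 24 h and the layout of the output cannot be told apart against the fed arrays. The reference channel is described as the same fed RNA on every array, with the doubt about fed pool 3 given above. In this channel 21.9% of all probes were called against the 0 h arrays at 12 h, and 20.4% and 0% at the later times (limma on Cy5). At 72 h, 4.29% had an unadjusted p under 0.05 by the same test. Fed pool 3 stood apart from the other fed pools, with a correlation of log ratios of 0.23 and 0.20 with them against 0.78 between pools 1 and 2. Each call against fed of a member, or of a gene around the members, that depends on it is given without it as well. The calls of cell type markers are given with it only. All fasted pools were set against the same 3 fed pools.

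The defining markers of the tissue were present. Of the enterocyte list 4 genes had a probe (Anpep, Apoa1, Apoa4 and Vil), and all 4 were above background throughout. The mean log ratio of this list ran from -1.08 to 0.10 in the fed pools, from 0.06 to 1.79 at 12 h, from 0.13 to 0.40 at 24 h and from -0.11 to -0.06 at 72 h. Markers of other cells moved with the fast. At 12 h, 3 of 5 smooth muscle probes (Acta2, Actg2 and Des) were called higher, with a list mean of 0.60 to 1.34 against -0.71 to 0.02 in the fed pools. So were Anpep of the enterocyte list, by 3.43 (adjusted p = 0.016), and Mmp7, 1 of 3 Paneth cell probes, by 2.02 (adjusted p = 0.040). In Cy3 alone, Actg2 was the only one of these called, at 0.70 (adjusted p = 0.026). Acta2, Des, Anpep and Mmp7 were at 0.96, 1.26, 1.30 and 1.38 there (adjusted p = 0.085, 0.082, 0.081 and 0.056). The reference was lower for Actg2 by -1.09, and for the others by -1.42, -0.46, -2.13 and -0.64 in that order. It was called for Acta2 and Actg2 (adjusted p = 0.030 and 0.035). The smooth muscle probes did not all rise. Myh11 differed by 0.40 at 12 h, without a call (adjusted p = 0.29). Cnn1 differed by -0.08 at 12 h and -0.18 at 24 h, without a call (adjusted p = 0.76 and 0.47). In Cy3 alone Cnn1 was called lower, by -0.71 and -1.20 (adjusted p = 0.018 and 0.00059). Its reference was lower too, by -0.63 and -1.02 (adjusted p = 0.042 and 0.0042). Of the smooth muscle probes Des was also higher at 24 h and 72 h, by 1.99 and 1.38 (adjusted p = 0.0071 and 0.030), and Myh11 at 72 h by 0.95 (adjusted p = 0.024). The B and plasma cell probe Igj was lower at 24 h by -0.81 (adjusted p = 0.044). At 72 h, both B and plasma cell probes were lower, with a list mean of -2.44 to -1.98 against -0.20 to 0.14, as was the goblet cell probe Agr2, at -1.87 to -1.36 against -0.35 to 0.05. No erythroid marker had a probe. The part of these shifts in the values below was not tested, and in whole tissue fewer cells of a type and less RNA per cell cannot be told apart.

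None of the 9 probes was called after 12 h, 2 were called after 24 h and 5 after 72 h, where 10.9%, 10.0% and 10.6% of all probes were. The probe of Mt1 rose at 24 h and stayed high at 72 h, the log ratio of Hmox1 was higher at both times, at 24 h without a higher Cy3 signal, and those of Gpx1, Gpx2 and 1 of the 2 Sod2 probes were lower at 72 h. At 12 h, 3 member probes had an unadjusted p under 0.05 by limma, where 29.2% of all probes had, and none was called in the Cy3 channel alone either. The pools of a fasted group lay wholly outside the range of the fed pools for 2, 3 and 7 member probes at the 3 times, where 30.8%, 40.4% and 41.8% of all probes did. The median difference from the fed pools over the members was 0.37, -0.06 and -0.17 in the same order, and over all probes -0.02, 0.02 and 0.01.

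**Figure D1:**
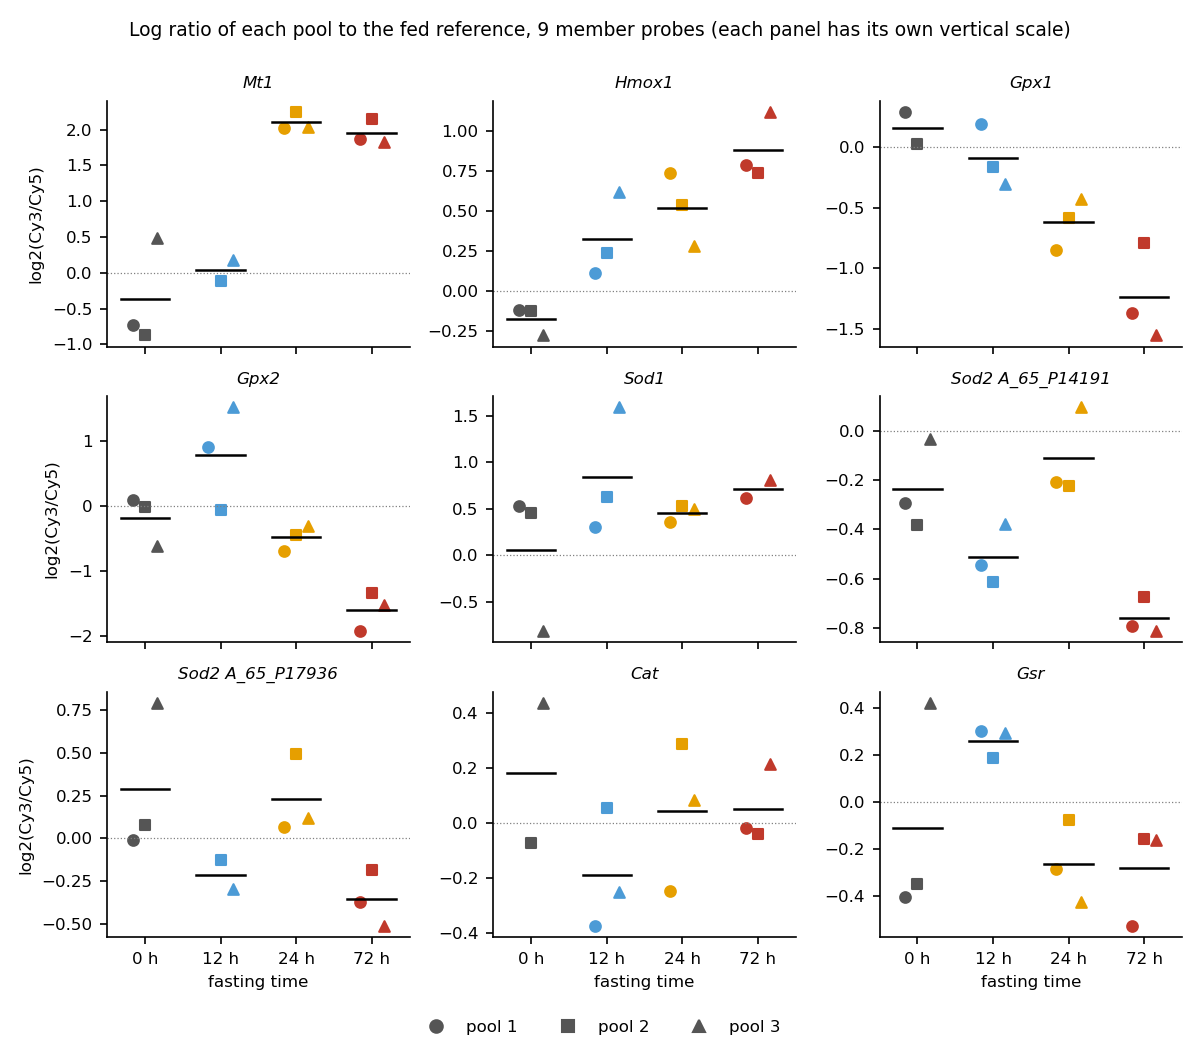
Log2(Cy3/Cy5) of every pool (points, with a shape for each pool number) and the mean of each time point (bars) for the 9 member probes, with fasting time on the horizontal axis and a separate vertical scale per panel. The 24 h and 72 h pools of Mt1 sit between 1.83 and 2.24, above all fed pools, and those of Gpx1 and Gpx2 descend to between -1.91 and -0.79 at 72 h.

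Mt1, the main inducible metallothionein gene together with Mt2, had log ratios of -0.73, -0.87 and 0.49 in fed pools 1, 2 and 3. At 12 h the values were -0.11 and 0.18 in pools 2 and 3, while the spot of pool 1 was marked as an outlier and left out. The 24 h pools had 2.03, 2.24 and 2.04, and the 72 h pools 1.87, 2.14 and 1.83. Fed and 12 h pools overlapped, whereas every pool at 24 h and 72 h lay above every fed and 12 h pool. The difference from the fed pools was 0.40 at 12 h (95% CI -0.28 to 1.09, adjusted p = 0.42, n = 2 against 3), and without fed pool 3 it was 0.84 and called (adjusted p = 0.042). At 24 h it was 2.47, or 5.55-fold (95% CI 1.86 to 3.08, adjusted p = 0.00077). At 72 h it was 2.32 (95% CI 1.71 to 2.93, adjusted p = 0.00041), an estimate that may be too small because of the spots' brightness described below. Without fed pool 3 the later differences were larger, at 2.90 and 2.75. The fed files give this probe a clone name and not Mt1, so that its identity rests on the naming in the 12 h files.

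The rise of Mt1 was carried by the sample channel. The Cy3 intensity differed from the fed pools by 2.56 at 24 h and 2.94 at 72 h on the log2 scale (adjusted p = 0.00013 and 8.1e-05), against 0.09 and 0.62 in the reference (adjusted p = 0.74 and 0.62). At 72 h the Mt1 spot had reached the top of the scanner's range. The Cy3 medians were 65207, 65175 and 65206, on arrays whose highest median was 65207, 65207 and 65206, and 2 of the 3 spots were marked as saturated. Every difference of Mt1 at 72 h from fed or 12 h pools may therefore be too small an estimate. The difference of -0.15 between 72 h and 24 h (95% CI -0.76 to 0.46, adjusted p = 0.78) does not show equal levels. At 24 h the medians were 21450 to 39468, with no saturated spot.

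A second probe bears on the metallothioneins. It was named LOC234574 in the 12 h files, and so is no member, but the files of the fed arrays name it Mt2. It was looked up for this name and not for its values. Its log ratios were -0.41, -0.83 and 0.53 in the fed pools, -0.61, 0.25 and 0.72 at 12 h, 2.65, 2.88 and 2.73 at 24 h, then 2.90, 3.10 and 2.04 at 72 h. As for Mt1, fed and 12 h pools overlapped and all later pools were higher. The difference from fed was 0.35 at 12 h (adjusted p = 0.55), 2.99 at 24 h (adjusted p = 0.00077) and 2.92 at 72 h (adjusted p = 0.00038), the last a 7.55-fold difference. None of its spots was saturated, with Cy3 medians of 26427 to 35850 at 72 h, so that the high level at 72 h did not rest on a spot at the scanner's limit. Without fed pool 3 its differences were 3.37 and 3.30 at 24 h and 72 h.

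**Figure D2:**
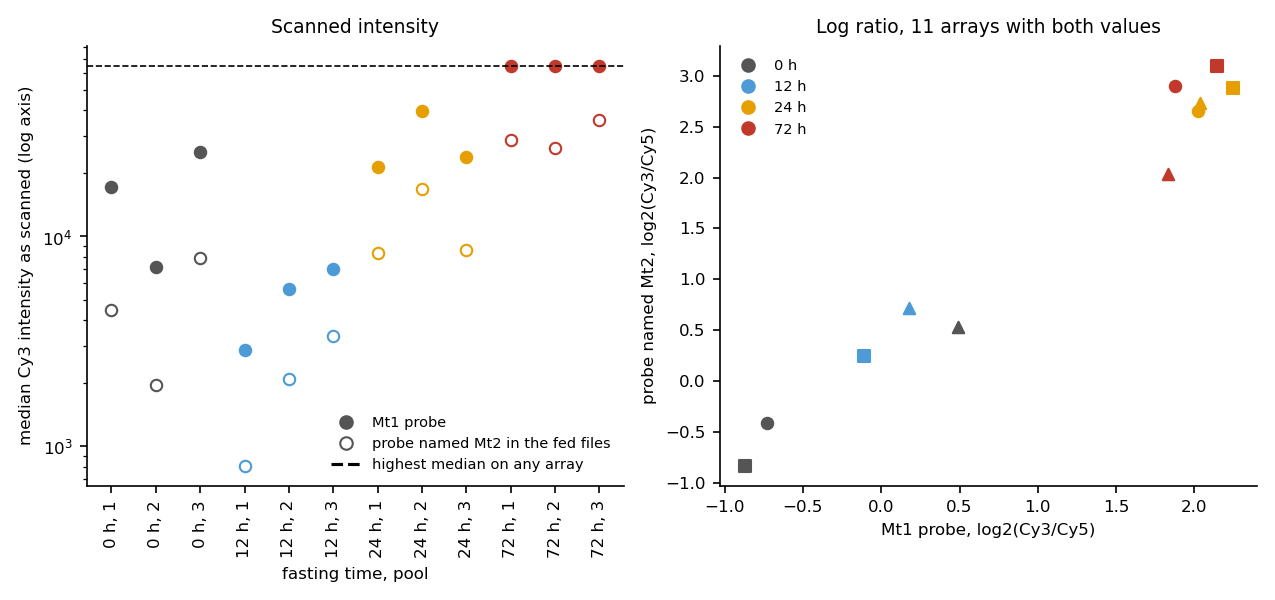
Left, scanned median Cy3 intensity on a log axis of the Mt1 probe (filled) and of the probe named Mt2 in the fed files (open) on each array, with the highest median of any array as a dashed line. Right, log2(Cy3/Cy5) of the same probes against each other on the 11 arrays that gave both, coloured by fasting time with a shape for each pool number, in which the 24 h and 72 h pools lie together at the top right.

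Since both metallothionein probes moved together, the starts of their genes are shown, from RefSeq on the assembly GRCm38.p6, as 250 bases before and 30 after the annotated start. The core of the metal response element, the site of the zinc-sensing factor MTF-1, was searched as TGCACNC or TGCGCNC on both strands, with overlapping matches counted as 1, and matches are in capitals.
Mt1, chr8:94178839-94179118, plus strand: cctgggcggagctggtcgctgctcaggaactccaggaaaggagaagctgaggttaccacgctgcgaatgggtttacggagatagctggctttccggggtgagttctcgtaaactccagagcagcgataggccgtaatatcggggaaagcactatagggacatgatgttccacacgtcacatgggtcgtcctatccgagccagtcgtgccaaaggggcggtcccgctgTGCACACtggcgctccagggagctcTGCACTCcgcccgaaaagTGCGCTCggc
Mt2, chr8:94172368-94172647, plus strand: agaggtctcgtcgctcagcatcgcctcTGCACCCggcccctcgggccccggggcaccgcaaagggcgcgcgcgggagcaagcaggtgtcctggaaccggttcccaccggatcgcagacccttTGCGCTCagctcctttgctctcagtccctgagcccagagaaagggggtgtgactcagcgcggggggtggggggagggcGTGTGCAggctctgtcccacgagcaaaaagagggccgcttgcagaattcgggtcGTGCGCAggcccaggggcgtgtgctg
Mt1 had 3 matches and Mt2 had 4. Of 27025 promoters of the same length, 24.0% had at least 1 match, 1.13% at least 3 and 0.204% at least 4. A promoter was found for 8 of the 10 genes, all but Hmox1 and Gsr, and no match was present in the windows of the other 6. The core of the antioxidant response element, TGACNNNGC, which overlaps the AP-1 motif TGACTCA, had 1 match each in Mt2, Sod1 and Prdx1, as in 11.6% of all promoters. These matches describe letters in the windows only.

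Hmox1, the inducible heme oxygenase, had log ratios of -0.12, -0.13 and -0.28 in the fed pools. The 12 h pools had 0.11, 0.23 and 0.62, the 24 h pools 0.73, 0.54 and 0.28, and the 72 h pools 0.78, 0.73 and 1.11. All fasted pools were above all fed pools. The difference from fed was 0.50 at 12 h (adjusted p = 0.087), 0.69 at 24 h (95% CI 0.31 to 1.08, adjusted p = 0.029) and 1.05 at 72 h (95% CI 0.67 to 1.44, adjusted p = 0.0023). The channels separated these time points. In Cy3 the Hmox1 probe differed from fed by -0.10 at 12 h and -0.09 at 24 h (adjusted p = 0.73 and 0.71), while the reference differed by -0.60 and -0.79 (adjusted p = 0.019 and 0.0044), so that the call at 24 h went with a lower reference signal and not with a higher Cy3 signal. At 72 h Cy3 was higher by 0.83 (adjusted p = 0.0066) and the reference differed by -0.22 (adjusted p = 1.00). Between 72 h and 24 h the log ratio differed by 0.36 (adjusted p = 0.22) and Cy3 alone by 0.93 (adjusted p = 0.0022). The reference differed in the same direction as Cy3, by 0.57 (adjusted p = 0.033). Leaving out any of the 3 fed pools, or pool 1 or 2 of the 24 h group, removed the call at 24 h (differences of 0.58 to 0.72), whereas at 72 h all 12 such fits kept it. The probe was dim, with fed Cy3 medians of 160 to 188 that were well above background on 1 of 3 arrays. The size of its difference at 72 h therefore depends on how background is handled, from 0.70 without correction to 1.79 with the software's ratio, and no fold is given.

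The Cy3 channel alone called no member probe at 12 h, Mt1 at 24 h, and Mt1, Hmox1, Gpx1 and Gpx2 at 72 h, against 15.0%, 24.6% and 8.68% of all probes. In the reference channel Hmox1 was called at 12 h and 24 h, as the only member, and no member was called at 72 h.

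**Figure D3:**
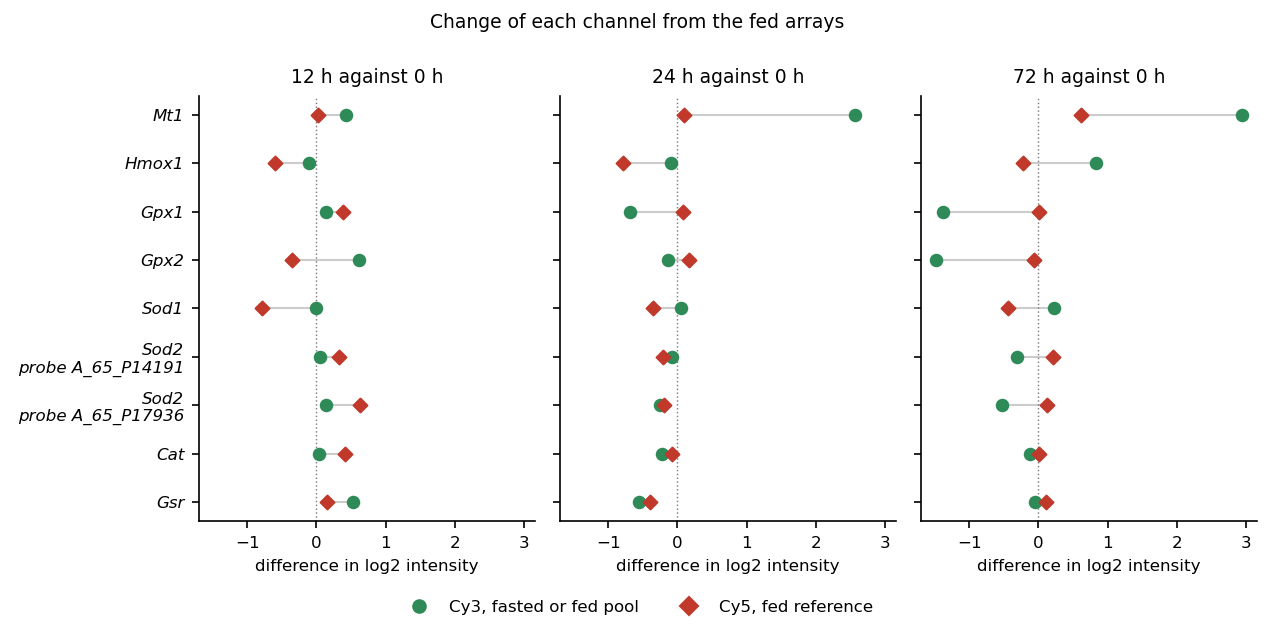
Difference of each fasted time point from the fed arrays in normalized log2 intensity of Cy3 (circles) and of the Cy5 fed reference (diamonds), for the 9 member probes. For Mt1 at 24 h the circle lies at 2.56 and the diamond at 0.09, whereas for Hmox1 at 24 h the circle lies at -0.09 and the diamond at -0.79.

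Gpx1, the selenium-containing glutathione peroxidase found in most cells, fell during the fast. Its log ratios were 0.29 and 0.02 in fed pools 1 and 2, with the spot of pool 3 left out as an outlier, and 0.18, -0.16 and -0.31 at 12 h. At 24 h they were -0.85, -0.58 and -0.43, and at 72 h -1.37, -0.79 and -1.55. The 24 h and 72 h pools were all below the fed pools, but overlapped each other. From fed, the difference was -0.25 at 12 h (adjusted p = 0.53), -0.77 at 24 h (95% CI -1.29 to -0.26, adjusted p = 0.058) and -1.39 at 72 h, a 2.62-fold lower level (95% CI -1.91 to -0.87, adjusted p = 0.0028). Both the log ratio and Cy3 alone gave the call at 72 h, the latter with a difference of -1.38 (adjusted p = 0.0043). The value at 24 h missed the threshold here but passed it in 6 of 13 other settings.

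Gpx2, the glutathione peroxidase of the gastrointestinal epithelium, followed another course. Fed pools had 0.10, -0.01 and -0.61, 12 h pools 0.91, -0.06 and 1.52, 24 h pools -0.69, -0.44 and -0.30, and 72 h pools -1.91, -1.34 and -1.52. The 12 h pools spread most, and all 72 h pools were below every other pool. In pool 3 at 12 h the reference spot was dim for this probe, at 882.5 against 2671 and 2487 on the other 12 h arrays. The difference from fed was 0.96 at 12 h (95% CI 0.29 to 1.64, adjusted p = 0.064), -0.30 at 24 h (adjusted p = 0.57) and -1.42 at 72 h, 2.67-fold lower (95% CI -2.09 to -0.74, adjusted p = 0.011). In Cy3 alone the probe was lower at 72 h by -1.47 (adjusted p = 0.0043). The call at 72 h was lost without fed pool 1 (-1.28, adjusted p = 0.052) or 72 h pool 1 (-1.26, adjusted p = 0.069). The fed files describe this probe as matching a Gpx2 pseudogene, and signal of gene and pseudogene cannot be separated.

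Of the superoxide dismutase probes, 1 of 3 was called at 72 h. Sod1, the copper- and zinc-containing cytosolic enzyme, had 0.53, 0.45 and -0.81 in the fed pools, 0.30, 0.63 and 1.59 at 12 h, 0.36, 0.53 and 0.49 at 24 h, then 0.62 and 0.81 at 72 h, with 72 h pool 2 left out as an outlier. Fed pool 3 and 12 h pool 3 lay apart from the rest. The differences of 0.79, 0.40 and 0.66 were not called (adjusted p = 0.15, 0.48 and 0.32), and without fed pool 3 the 72 h value was 0.22. At 12 h the Sod1 difference in Cy3 was close to 0, at -0.0012, and that in the reference -0.79 (adjusted p = 0.063).

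Sod2, the mitochondrial manganese enzyme, was measured by 2 probes. Probe A_65_P17936, which all files name Sod2, had -0.01, 0.08 and 0.79 in the fed pools, -0.13 and -0.29 at 12 h (pool 1 left out as an outlier), 0.07, 0.49 and 0.12 at 24 h, then -0.37, -0.19 and -0.51 at 72 h. The 72 h pools were below all fed pools, with a difference of -0.64 that was not called (95% CI -1.10 to -0.18, adjusted p = 0.074). Probe A_65_P14191 ran from -0.38 to -0.03 in the fed pools and from -0.81 to -0.68 at 72 h, a difference of -0.53, or 1.44-fold (95% CI -0.86 to -0.19, adjusted p = 0.046). This call was weak, since it was lost in 9 of 12 fits that left out 1 array, among them that without fed pool 3 (-0.42, adjusted p = 0.16), and in Cy3 alone (-0.31, adjusted p = 0.45). The fed files give this second probe a clone name and not Sod2, so that its identity is uncertain. At 12 h and 24 h the probes differed from fed by -0.50 and -0.06 for A_65_P17936, and by -0.28 and 0.12 for A_65_P14191, with no call.

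Cat, which encodes catalase, and Gsr, which encodes glutathione reductase, were not called at any time. For Cat the pools ranged from -0.37 to 0.44 over all time points, and the differences from fed were -0.37, -0.14 and -0.13 at 12, 24 and 72 h, the last with a 95% CI of -0.60 to 0.34 (fed pool 1 left out as an outlier). Gsr had -0.40, -0.35 and 0.42 in the fed pools, 0.30, 0.19 and 0.29 at 12 h, -0.28, -0.07 and -0.42 at 24 h, then -0.52, -0.16 and -0.16 at 72 h. Fed pool 3 was the highest of all Gsr values. Its differences from fed were 0.37, -0.15 and -0.17, and the interval at 72 h was -0.62 to 0.28. These intervals leave room for changes in either direction, so equal levels were not shown.

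**Figure D4:**
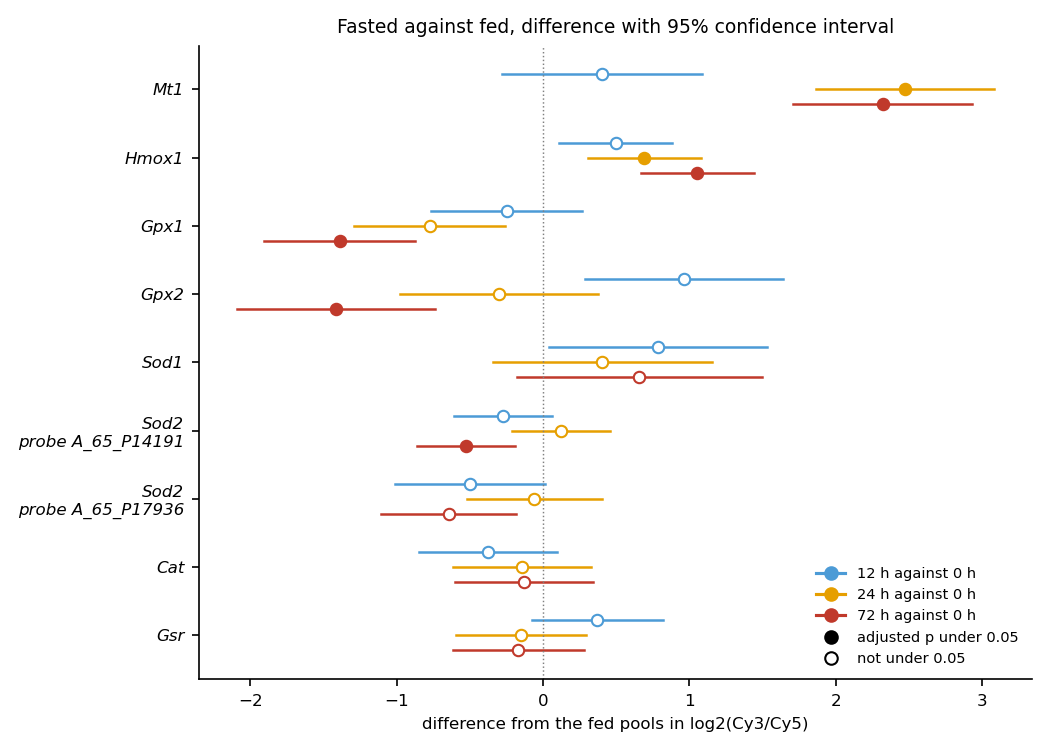
Difference in log2(Cy3/Cy5) between fasted and fed pools with its 95% confidence interval for the 9 member probes at 12, 24 and 72 h, with filled points at an adjusted p under 0.05. Mt1 stands at 2.47 at 24 h and at 2.32 at 72 h, the latter with spots at the scanner's limit. Gpx1 and Gpx2 stand at -1.39 and -1.42 at 72 h, and the intervals of Cat and Gsr include 0.

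The fed files also name or describe probes of the genes that are otherwise missing or single. A probe that they describe as similar to peroxiredoxin I, an enzyme that reduces peroxides with thioredoxin, differed from fed by 0.11, -0.14 and -0.17 at 12, 24 and 72 h, with no call and with Cy3 medians of 130 to 275 over all arrays. A second probe that they name Gsr differed by 0.29, 0.06 and -0.02, with no call and with Cy3 medians of 116 to 294. Both were dim, and neither had Gsr or Prdx1 as its name in the 12 h files.

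Fasted pools were also compared with each other. Of the 9 probes, 2 were called for 24 h against 12 h, 3 for 72 h against 12 h, and 2 for 72 h against 24 h, beside 2.94%, 10.8% and 10.6% of all probes. Mt1 was higher than at 12 h by 2.07 at 24 h (adjusted p = 0.0052) and by 1.92 at 72 h (adjusted p = 0.0032). The estimate at 72 h may be too small, because the Mt1 spots were at the scanner's limit. For Gpx1 the level at 72 h was lower than at 12 h by -1.14 (adjusted p = 0.0061), a call kept in 11 of 12 other settings. Gpx2 was lower at each later time, by -1.26 for 24 h against 12 h (adjusted p = 0.046), -2.38 for 72 h against 12 h (adjusted p = 0.00086) and -1.11 for 72 h against 24 h (adjusted p = 0.037). Its step between 12 h and 24 h was called in 2 of 12 other settings and 2 of 12 fits without an array, and fell to -0.90 (adjusted p = 0.094) without 12 h pool 3. The step between 24 h and 72 h kept its call in 6 of 12 other settings and 6 of 12 fits without an array. Sod2 probe A_65_P14191 was lower at 72 h than at 24 h by -0.65 (adjusted p = 0.019), but not in Cy3 alone (-0.23, adjusted p = 0.57).

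The genes around the members were taken from 8 lists of related functions, which held 46 other probes for 34 genes. Of these 46 probes, 4 were called higher and 6 lower at 12 h, 2 higher and 1 lower at 24 h, and 2 higher and 10 lower at 72 h. Of all probes, 4.87% were called higher and 6.02% lower at 12 h, 3.76% and 6.26% at 24 h, then 4.81% and 5.79% at 72 h. The median difference from fed over the 46 was -0.11, -0.08 and -0.23. The counts moved with single arrays, from 3 to 18 at 12 h, 0 to 11 at 24 h and 7 to 20 at 72 h when 1 array was left out. At 12 h and 72 h the lowest and highest counts came without fed pool 3 and 12 h pool 1, and without 72 h pool 1 or 3 and 12 h pool 3, respectively. At 24 h they came without 24 h pool 1 and 12 h pool 3.

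Heme and iron genes made up 5 of the 12 calls at 72 h, all lower, of 11 probes for 7 genes, where 5.79% of all probes were called lower. Fth, the ferritin heavy chain that stores iron, had 2 probes with differences of -1.50 and -1.45 (adjusted p = 0.0030 and 0.0015), the first a 2.82-fold lower level. Its first probe ran from -0.32 to 0.94 in the fed pools and from -1.57 to -1.01 at 72 h, and both probes kept their call without fed pool 3, at -1.13 and -1.20. The Cy3 spot of the second was saturated in fed pool 3. Ftl1, the ferritin light chain, was lower by -0.75 (adjusted p = 0.017), and Blvrb, which reduces biliverdin, by -0.97 (adjusted p = 0.013). Trfr, the transferrin receptor that takes up iron, was lower by -1.32 on 1 probe (adjusted p = 0.0071) and differed by -0.48 and -0.01 on the 2 others, which were not called. Without fed pool 3 the calls of Ftl1, Blvrb and Trfr were lost (adjusted p = 0.070, 0.064 and 0.078), with differences of -0.69, -0.88 and -1.16. Blvra, which forms bilirubin, was the only call of this list at 12 h, at -0.97 (adjusted p = 0.024), or -0.91 without fed pool 3 (adjusted p = 0.085). Its Cy3 difference at 12 h was -0.37 (adjusted p = 0.33) and that of the reference 0.60 (adjusted p = 0.18). No probe of the list was called at 24 h. The list's median at 72 h was -0.71. Hmox2, the constitutive heme oxygenase, differed by -0.54 and 0.23 at 72 h on its 2 probes, without a call.

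In the thioredoxin and glutaredoxin list, 3 of 7 probes were called at each of 12 h and 72 h and 2 at 24 h, with medians of -0.35, -0.15 and -0.23 at 12, 24 and 72 h. Txnip, the inhibitor of thioredoxin, was higher at 12, 24 and 72 h, by 1.54, 1.61 and 1.78 (adjusted p = 0.039, 0.034 and 0.019), but its fed values were 0.30 and -1.35, with 1 spot left out. Without fed pool 3 the Txnip differences were 0.72, 0.78 and 0.95, and no call remained (adjusted p = 0.33, 0.30 and 0.23). Txn1 and Txn2, the cytosolic and mitochondrial thioredoxins, were lower at 72 h by -0.83 and -0.98 (adjusted p = 0.0094 and 0.0093), and Txn2 lost its call without fed pool 3, at -0.79 (adjusted p = 0.10). Txnrd1, which reduces thioredoxin, was lower at 12 h by -0.68 (adjusted p = 0.028), or -0.58 without fed pool 3 (adjusted p = 0.10), though its Cy3 difference was -0.09. Txnl, a thioredoxin-like protein, was lower at 12 h by -1.20 and at 24 h by -0.77 (adjusted p = 0.0049 and 0.029). The values without fed pool 3 were -1.02 and -0.59 (adjusted p = 0.026 and 0.11). At 72 h Txnl stood at 0.15, without a call.

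Of the other peroxide-removing enzymes, Gpx3, the secreted glutathione peroxidase, was higher by 1.93 at 12 h and 1.44 at 24 h on 1 of its 2 probes (adjusted p = 0.0053 and 0.017). The other Gpx3 probe differed by -0.49 and -0.29 (adjusted p = 0.15 and 0.42), the opposite sign, without a call. Pools of the first probe ran from -1.38 to 0.10 when fed, from 1.08 to 2.04 at 12 h and from 0.87 to 1.10 at 24 h, and the difference at 72 h was 0.88 (adjusted p = 0.11). Without fed pool 3 the values were 1.48 at 12 h, still called, and 0.99 at 24 h, not called. These 2 calls were all that the glutathione peroxidase list gave over its 3 probes, with medians of -0.09, 0.10 and 0.11. Prdx4, a peroxiredoxin of the endoplasmic reticulum, was lower at 72 h by -0.86 (adjusted p = 0.013), or -0.70 without fed pool 3 (adjusted p = 0.067). Prdx3, its mitochondrial relative, was higher at 12 h by 1.21, at the edge of the threshold (adjusted p = 0.050), and by 0.83 without fed pool 3 (adjusted p = 0.27). At 12 h the Cy3 difference of Prdx3 was 0.35 (adjusted p = 0.35) and that of the reference -0.86 (adjusted p = 0.097). With 3 probes, the peroxiredoxin and sulfiredoxin list had medians of 0.71, -0.12 and -0.52. Ccs, the copper chaperone of Sod1 and the only probe of its list, differed by -0.26, -0.12 and -0.62, the last called (adjusted p = 0.020).

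Glutathione synthesis and NADPH supply had 10 probes, with 3 lower at 12 h, none at 24 h and 1 at 72 h, and medians of 0.30, -0.13 and 0.07. Both probes of Gclm, the modifier subunit of glutamate-cysteine ligase, were lower at 12 h, by -0.57 and -1.25 (adjusted p = 0.038 and 0.0052), and without fed pool 3 by -0.54, not called, and -1.06, still called (adjusted p = 0.10 and 0.019). For the second probe the reference was higher by 1.01 (adjusted p = 0.0075) and Cy3 differed by -0.24. Mod1, the NADPH-forming malic enzyme, was lower at 12 h and 72 h, by -0.77 and -0.98 (adjusted p = 0.026 and 0.0058). It stood without fed pool 3 at -0.61, not called, and -0.82, still called (adjusted p = 0.10 and 0.034). At 12 h the Cy3 difference of Mod1 was -0.28 (adjusted p = 0.42) and that of the reference 0.49 (adjusted p = 0.077). Gclc, the catalytic subunit, differed by 1.17 at 72 h (adjusted p = 0.085) and was higher in Cy3 alone, by 1.58 (adjusted p = 0.0015).

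The Nrf2 list, of the main transcriptional regulator of antioxidant genes, its partners and targets, gave 1 call each at 12 h and 72 h among 8 probes, with medians of 0.05, 0.16 and 0.19. That call was Sqstm1, an autophagy adaptor, higher by 1.60 and 1.81 on 1 of 2 probes (adjusted p = 0.046 and 0.017). The 12 h call was lost without fed pool 3 (0.59, adjusted p = 0.25). At 12 h its Cy3 difference was -0.07 and that of the reference -1.67 (adjusted p = 0.0051), and at 72 h the call was lost without fed pool 3 (0.80, adjusted p = 0.12). Nfe2l2, which encodes Nrf2, differed by 1.00, 0.76 and -0.98 at 12, 24 and 72 h, without a call (adjusted p = 0.063, 0.15 and 0.069). Nqo1, a common target, differed by 0.18, -0.62 and 0.13, likewise without a call. The 3 probes for metallothionein regulation and zinc gave no call at any time. The 2 probes of Mtf1, which encodes MTF-1, differed by -0.53 and 0.67 at 72 h and thus opposed each other (adjusted p = 0.059 and 0.073), and the list's medians were -0.10, 0.04 and 0.43.

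**Figure D5:**
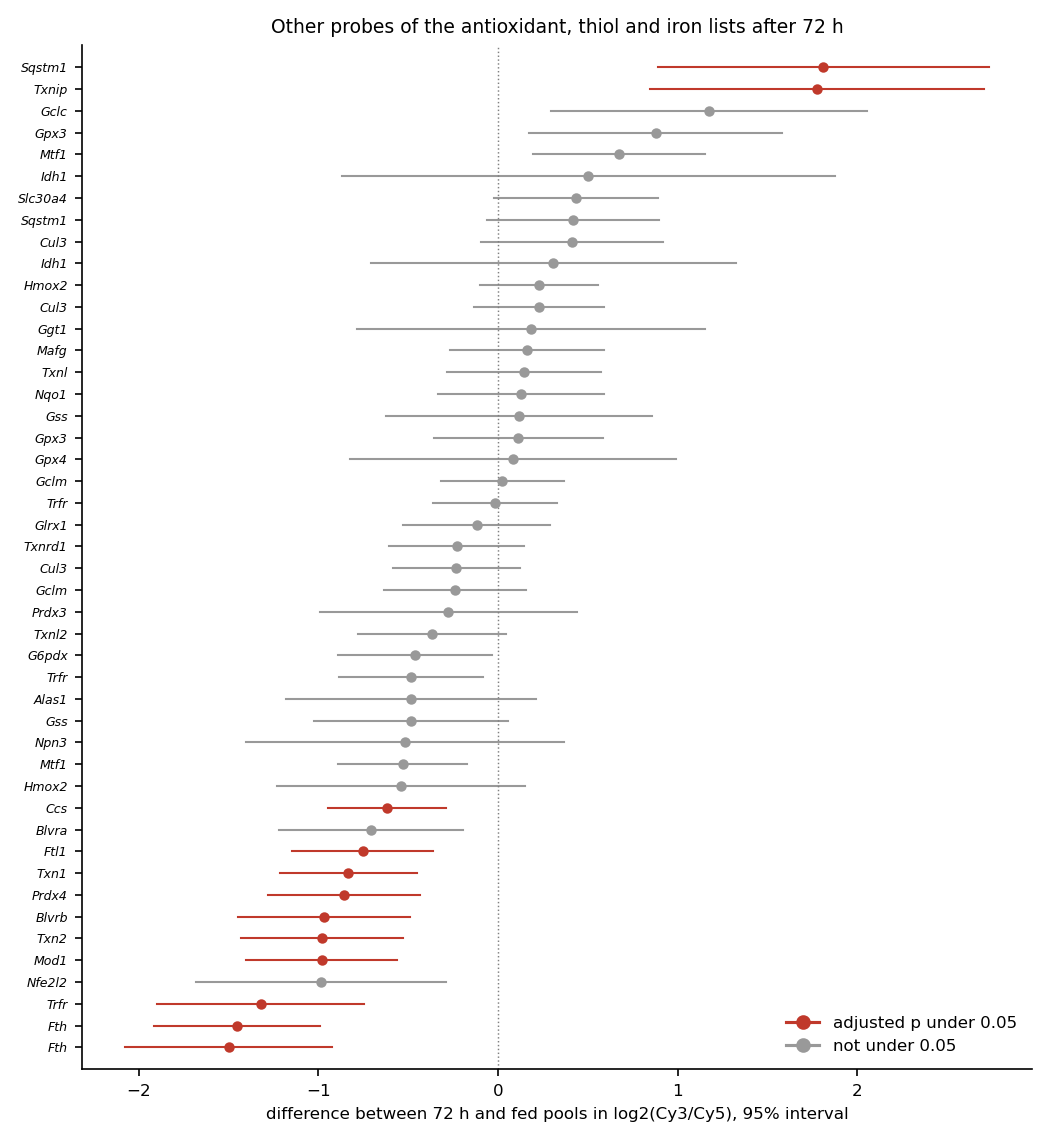
Difference in log2(Cy3/Cy5) between 72 h and fed pools with its 95% confidence interval for the 46 other probes of the 8 lists, ordered by size, with called probes in red and 1 row per probe. At the lower end stand the 2 probes of Fth at -1.50 and -1.45, at the upper end Sqstm1 at 1.81 and Txnip at 1.78.

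The probes whose log ratios ran most like those of the called members were sought by Pearson correlation over 11 or 12 arrays. They were sought among 6554 probes (6553 for Gpx2 and Sod2). These had a gene identifier, a Cy3 signal well above background throughout and no spot left out on any array. For Mt1 the closest was the probe named Mt2 in the fed files, with r = 0.99 over 11 arrays, and Foxo1 and LOC232567 came next with 0.95 and 0.93. Closest to Hmox1 were BC037006 with 0.94, Phb with 0.92 and Zfp261 with 0.92. Gpx1 was followed by Cyc1 with 0.97, Dbi with 0.96 and Idh3b with 0.96, over 11 arrays. For Gpx2 they were 1110058B13Rik with 0.95, A930014C21Rik with 0.94 and Irf3 with 0.94, and for Sod2 probe A_65_P14191 Cyt19-pending with 0.94, Cd53 with 0.92 and Nrarp with 0.92. These values describe 12 arrays that share time points and array formats, and the 3 highest of all compared probes are named for each member.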

How the data were processed

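RNA of pooled mouse intestines was hybridised to Agilent mouse development oligo arrays, and the authors deposited the Feature Extraction 6.1.1 output, with a median foreground and background intensity per spot and channel, not normalized. Its other columns used here are the authors' deposited flags and the software's log10 ratio of Cy5 over Cy3 (a score with shifted decimal points, repaired by size or left out in 115 cells). The study's Split-Factor analysis of variance was replaced by limma 3.58.1 in R 4.3.3, with the package data.table in version 1.17.8.

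Background was corrected with normexp (offset 50), 1075 of 21446 spots were left out as controls, outlier spots were left out, and 24 channels were quantile normalized. Spots of a probe were averaged and log2(Cy3/Cy5) was fitted with a mean per time point over 12 arrays, eBayes and Benjamini-Hochberg adjustment over 20281 probes. The fit was tested on simulated data. Members carry the names in the 12 h files. Pathway probes were named where called at least once against fed. Gclc, Nfe2l2, Nqo1, Hmox2 and Mtf1 were named outside this rule, without a call. Nearest patterns were the 3 highest correlations. The members and lists were chosen with earlier results of these data known. Array number and signal over background (1.65 to 6.00 per channel) limit precision. An alternative on the software's ratio, centred, and those of the pathway counts were chosen after seeing the data. Alternatives changed background, normalization, filters, channel, model and arrays. Promoters were read and plots drawn with pandas 2.3.3 and matplotlib 3.10.9 in Python 3.11.15. The deposited series matrix, which holds the same ratios with the sign turned, was not used, and no genome build is named by the files.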

Additional observations from a re-analysis of the deposited data

Results flagged for a closer look

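The 7 values here were flagged because the effect of fasting differed between 2 fasted time points, by limma's test of that difference. For Mt1 the level was higher than at 12 h by 2.07 at 24 h and by 1.92 at 72 h, where its spots were at the scanner's limit (log2 scale). Gpx1 was lower at 72 h than at 12 h, by -1.14. Gpx2 was lower at 24 h than at 12 h by -1.26, at 72 h than at 12 h by -2.38 and at 72 h than at 24 h by -1.11. The first and last of these Gpx2 calls were kept in only 2 and 6 of 12 other settings. The Sod2 probe A_65_P14191 was lower at 72 h than at 24 h by -0.65. Arrays of 12 h and 24 h had the same file layout, while the 72 h arrays had that of the fed arrays, and the part of the layout in the comparisons with 72 h was not tested. Groups had 3 arrays, too few to flag a single array within a group.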

How the results depend on the processing

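Of 435 values of the member probes under alternative settings, 394 kept direction and side of the threshold, 24 lost a call, 16 gained one and 1 reversed, Hmox1 at 24 h in Cy3 alone (-0.094, adjusted p = 0.71). In addition 33 of 476 values without a call had the other sign. Mt1 at 24 h and 72 h, Hmox1 at 72 h and Gpx1 at 72 h kept their calls in all 13 alternatives and in all 12 fits without an array.

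The counts of called member probes were 0, 2 and 5 at 12, 24 and 72 h against fed, and 2, 3 and 2 for 24 h against 12 h, 72 h against 12 h and 72 h against 24 h. At 12 h the count was 2 with median centring, 3 against the reference directly, 3 with array weights and 1 at an unadjusted p under 0.01 with at least a 1.4-fold difference. At 24 h it was 1 without background correction, 1 in Cy3 alone and 1 with the replicate block, and it was 3 with loess and Aquantile, median centring, outlier spots kept, the reference directly, only the 2 time points or array weights. For 24 h against 12 h it was 1 without background correction, with background subtracted, with loess and Aquantile, with median centring, with the software's ratio as deposited or centred, with only the 2 time points and with the replicate block. For 72 h against 12 h it was 5 with array weights. For 72 h against 24 h it was 1 without background correction, with loess and Aquantile, with median centring, with either software ratio and with the replicate block, and 4 with only the 2 time points or array weights. Without 1 array each, the counts ran from 0 to 2, 1 to 3 and 3 to 6 against fed, and from 1 to 2, 3 to 4 and 0 to 3 between fasted times.

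The counts of other listed probes were 10, 3 and 12. At 12 h they were 5 without background correction, 5 with either software ratio, 3 in Cy3 alone, 0 with only the 2 time points, 19 with array weights and 5 with the replicate block. At 24 h they were 10 with loess and Aquantile, 6 with either software ratio, 8 in Cy3 alone, 8 against the reference directly, 8 with only the 2 time points and 16 with array weights, and at 72 h 21 against the reference directly and 27 with array weights. Without 1 array each, they ran from 3 to 18, 0 to 11 and 7 to 20.

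Replicate numbers did not pair the arrays. Same-numbered arrays correlated at -0.30 to 0.13 in 18 pairs of deviations, 2 of them over 0.1, and 4 of 12 arrays correlated best with their own number. The block left 0, 1 and 4 member calls against fed. Median centring moved the median of all probes by 0.15 for 24 h against fed and -0.17 for 72 h against 24 h. A block for slide or scan was not run, since the scanner files used here hold no such field. With 3 arrays per group, values without a call leave room for moderate changes, and the Mt1 spots at the scanner's limit at 72 h may understate that level. The cause of each change above was not tested.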
